A study of Mus musculus with 16 samples.

Results

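Insulin leaves the β-cell by exocytosis, and 9 genes of the exocytosis machinery were followed here through 16 libraries of mouse β-cell RNA. The genes were Snap25, Stx1a, Vamp2, Syt7, Sytl4, Rab3a, Rims2, Unc13a and Slc30a8, taken by name from a count table that lists 23329 genes. All 9 passed the filter on low counts that left 10820 tested genes. The cells were BetaTC6, a mouse line derived from an insulinoma and labelled with a C57BL/6 background, and each of the 4 groups had 4 libraries. Wild-type cells and cells carrying a P2ry1 knockout label both received 20 mM glucose, either with DMSO, the vehicle, or with ivermectin. All groups were grown for 3 days, kept without glucose in Krebs Ringer Buffer with albumin and then stimulated for 30 min. The dose of ivermectin, the number of clones behind the knockout label and the edit itself are not given in the sources used here. Ivermectin is an antiparasitic drug, P2ry1 encodes a purinergic receptor, and the design asks how both bear on mRNA levels in β-cells.

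Insulin granules fuse with the plasma membrane through SNARE proteins. Stx1a (syntaxin 1A) and Snap25 sit at the plasma membrane and Vamp2 (synaptobrevin 2) on the granule, and the helices of these proteins zip into the bundle that drives fusion. Syt7 is a calcium sensor of the synaptotagmin family. Rab3a is a small GTPase of the granule surface, and Sytl4 (granuphilin) is a Rab effector that docks granules by binding Rab27a and syntaxin. Rims2 is a scaffold that ties Rab3 to calcium channels and to the priming machinery, and Unc13a (Munc13-1) opens syntaxin for SNARE assembly. Slc30a8 (ZnT8) moves zinc into the granule, where insulin is stored as zinc crystals.

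Rab3a and Syt7 fell and Sytl4 rose in the libraries labelled knockout, both in vehicle and in ivermectin. Rab3a stood at 0.676 times its wild-type level in vehicle and at 0.638 times in ivermectin, and Syt7 at 0.69 and 0.641 times. Sytl4 stood at 1.26 and 1.34 times. Unc13a and Vamp2 passed the test in ivermectin alone, at 0.76 and 0.862 times the wild-type level. The call of Vamp2 was lost in 7 of 26 alternatives. Of all tested genes 20.7% passed between the lines in vehicle and 27.8% in ivermectin. None of the 9 genes passed the test between ivermectin and vehicle in either line, where 0.601% of all tested genes passed in wild type and 0% in knockout-labelled libraries.

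Promoter sequences are shown for Rab3a, Unc13a and Sytl4, because Rab3a and Unc13a lie on one chromosome and both fell between the lines in ivermectin while Sytl4 rose. Each window runs from 250 bases before an annotated start to 50 bases after it, comes from RefSeq (GRCm38.p6) and is written 5′ to 3′ on the gene's strand. For Unc13a and Sytl4 that start lies inside the gene position given below, not at its outer end. Of the 9 genes, 4 had a window in the table (Stx1a, Rab3a, Unc13a and Sytl4). Capitals mark TGACG, the core of the cAMP response element, and TTCAGCACC and GGACAGC, the left and right parts of RE1, the element bound by the neuronal silencer REST. Matches on the opposite strand are in capitals too, as CGTCA, GGTGCTGAA and GCTGTCC.

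Rab3a, chr8:70754453-70754752, plus strand: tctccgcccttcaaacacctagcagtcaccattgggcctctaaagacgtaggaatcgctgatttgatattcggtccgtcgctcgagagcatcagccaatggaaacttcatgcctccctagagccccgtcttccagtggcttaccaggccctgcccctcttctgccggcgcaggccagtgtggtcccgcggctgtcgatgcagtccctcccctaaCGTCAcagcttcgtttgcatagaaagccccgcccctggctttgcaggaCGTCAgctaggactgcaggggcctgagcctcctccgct
Unc13a, chr8:71671708-71672007, minus strand: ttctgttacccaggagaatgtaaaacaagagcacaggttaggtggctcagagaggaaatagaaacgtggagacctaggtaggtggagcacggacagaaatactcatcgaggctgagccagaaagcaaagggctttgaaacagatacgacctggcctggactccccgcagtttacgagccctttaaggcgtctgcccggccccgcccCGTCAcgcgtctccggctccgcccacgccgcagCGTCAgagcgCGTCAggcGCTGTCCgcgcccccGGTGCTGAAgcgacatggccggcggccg
Sytl4, chrX:133981763-133982062, minus strand: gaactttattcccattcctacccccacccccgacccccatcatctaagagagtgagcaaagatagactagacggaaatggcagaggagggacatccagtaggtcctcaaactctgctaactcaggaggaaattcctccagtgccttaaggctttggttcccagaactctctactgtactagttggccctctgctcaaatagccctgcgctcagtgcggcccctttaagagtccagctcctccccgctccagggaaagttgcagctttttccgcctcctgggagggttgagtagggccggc

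The Rab3a window held TGACG at bases 215 to 219 and 263 to 267, counted from the first base printed. The Unc13a window held it at 3 places, starting at bases 207, 240 and 250, followed by the right part of RE1 at bases 258 to 264 and the left part at bases 273 to 281. The Sytl4 window held none of these letters. The Stx1a window held TGACG at 1 place, bases 107 to 111, and the second Rab3a window, which starts at base 70754852, held it at none. TGACG occurs in 20.8% of the 32851 promoter windows of the table, TTCAGCACC in 0.371% and GGACAGC in 6.56%. Both parts of RE1 occur together in 14 windows (0.0426%), counted on either strand and in any order or spacing. Their spacing in the Unc13a window was not set against that of the whole element. The whole element TGACGTCA, present in 1.79% of windows and overlapping TGACG by construction, and the E-box CACGTG, in 7.15%, were in none of the windows of the 4 genes, the Stx1a window and the second Rab3a window included. The GC box GGGCGG, in 35.7% of windows, occurred 3 times for Stx1a, 2 times each for Unc13a and the Rab3a window printed, and not for Sytl4. A match is a description of letters in the window.

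Library totals ran from 893088 to 2013242 counts, and the 4 wild-type vehicle libraries were the shallowest, at 1064787 or less against at least 1361146 in every other library. The first principal component of log2 CPM (counts scaled to the library total with edgeR's TMM factors) held 37.7% of the variance and separated the lines. Replicate pairs differed by a chi-squared value of 1.16 to 6.81 per degree of freedom. The 3 pairs with wild-type ivermectin replicate 4 gave 5.06 to 6.81. Without that library Vamp2 and the other 4 genes called in ivermectin still passed the test, and 5 of the 9 genes were called as with it. P2ry1 transcripts did not separate the labels, with a log2 difference of -0.17 in vehicle (adjusted p = 0.245) and -0.11 in ivermectin (adjusted p = 0.394), so the libraries are called knockout-labelled here. β-cell markers summed to 135300 to 158300 TPM (RSEM's level per transcript length, scaled within a library) over all 16 libraries. The delta-cell list (Sst, Hhex and Rbp4) summed to 934.0 to 1045 TPM in wild type and 156.9 to 201.7 TPM in knockout-labelled libraries, with Sst down by -3.80 and -3.62 on the log2 scale. The alpha-cell list summed to 453.8 to 552.5 TPM in wild type and 302.4 to 403.1 TPM in knockout-labelled libraries. The list of 15 hepatocyte genes summed to 1601 to 2771 TPM in wild-type vehicle and to 1047 to 1464 TPM in the other 3 groups. Alb, 1 of the 15, averaged 467 TPM in wild-type vehicle and 81.5 TPM in wild-type ivermectin. In knockout-labelled libraries it averaged 29.4 TPM in vehicle and 49.9 TPM in ivermectin, a small part of the sum. With those 15 genes left out 3 members were called in vehicle and 5 in ivermectin, as with them. Among 7 acinar markers Cpa1, Prss2 and Amy2a5 were at 0 in every library, and the list summed to at most 4.35 TPM. Gamma-cell, fibroblast and macrophage lists summed to at most 17.3, 5.31 and 11.1 TPM. The part of the delta-cell and alpha-cell differences in the results below was not tested.

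Per length, Slc30a8 was the most abundant of the 9 transcripts in all 4 groups, at 498.5 ± 29.6 TPM in wild-type vehicle and 472 ± 39.7 TPM in knockout-labelled ivermectin libraries (SD, n = 4). In wild-type vehicle it was followed by Sytl4 at 191 TPM, Rab3a at 171 TPM, Vamp2 at 121 TPM, Snap25 at 97.8 TPM, Unc13a at 31.5 TPM, Stx1a at 22.5 TPM, Syt7 at 17.1 TPM and Rims2 at 10.01 TPM. The ranges of Sytl4 and Rab3a, of Unc13a and Stx1a, and of Stx1a and Syt7 overlapped there, and the other neighbours in this order did not. In the knockout-labelled groups the order of the means was the same, but Sytl4 and Rab3a no longer overlapped and Rab3a overlapped Vamp2 instead. The ratio of Sytl4 to Rab3a TPM was 1.12 ± 0.129 in wild-type vehicle and 1.005 ± 0.0747 in wild-type ivermectin. It was 2.09 ± 0.146 in knockout-labelled vehicle and 2.10 ± 0.168 in knockout-labelled ivermectin libraries (SD, n = 4). The ratio ran from 0.921 to 1.26 over the wild-type libraries and from 1.92 to 2.30 over the knockout-labelled ones, so that the lines did not overlap.

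**Figure D1:**
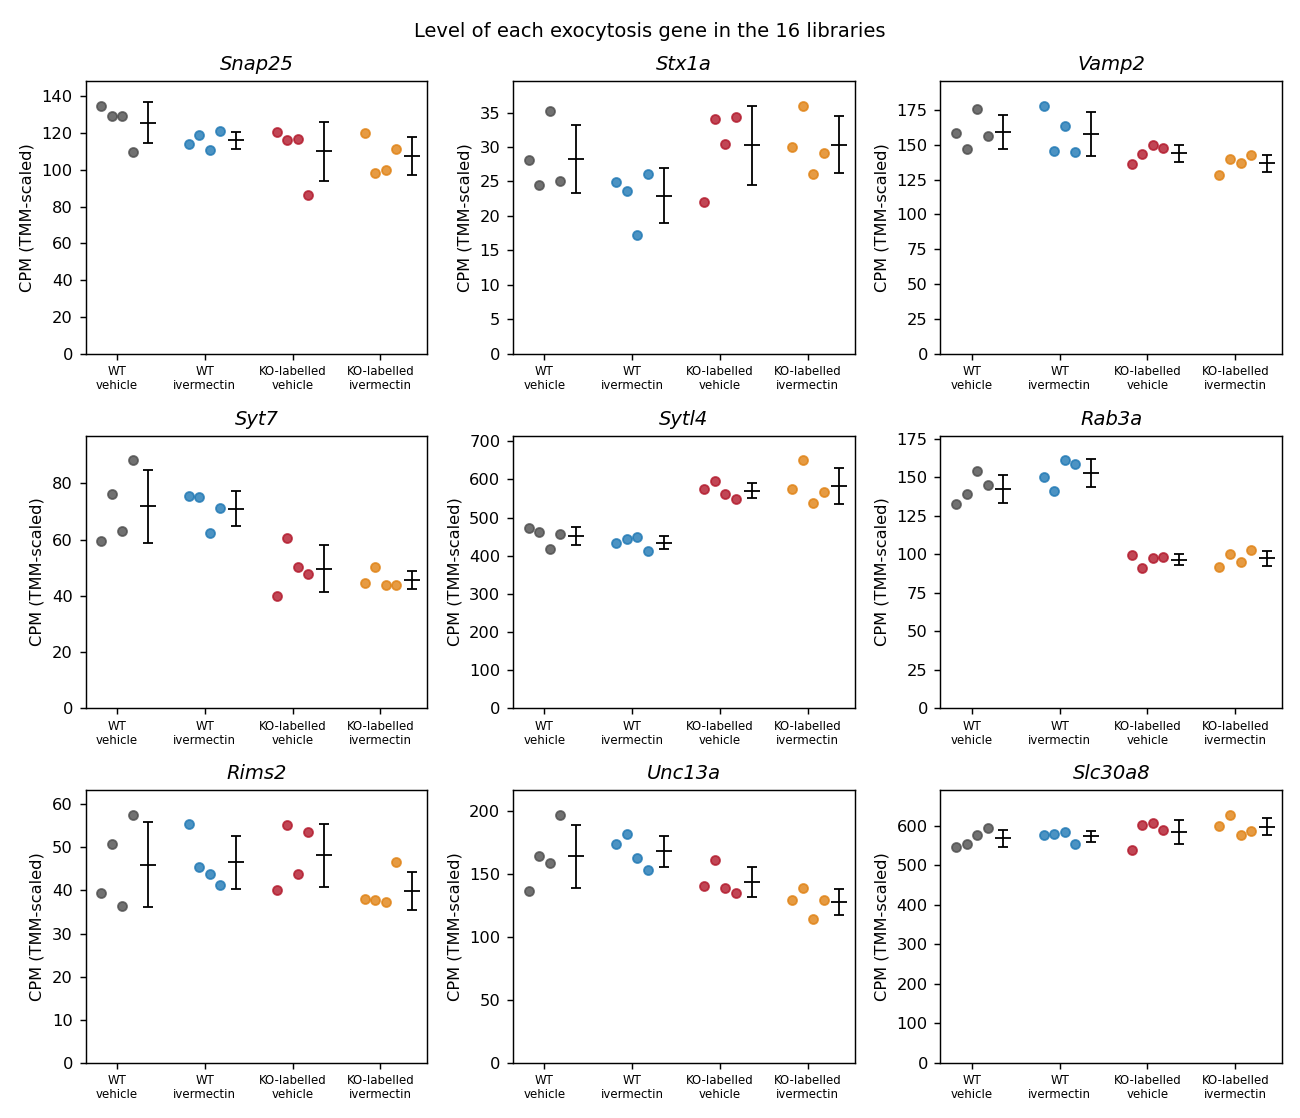
Level of each of the 9 genes in CPM (vertical axis, from 0) in the 16 libraries, with 1 coloured point per library in replicate order and a black bar for the mean ± SD of each group of 4. Rab3a falls from 132.7 to 161.1 CPM in wild type to 91.3 to 102.9 CPM in knockout-labelled libraries, and Sytl4 rises from 411.1 to 472 CPM to 538 to 650.1 CPM.

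Of the 9 genes together, 3 passed the test between the lines in vehicle (1 higher, 2 lower), where 20.7% of all tested genes passed. Over all tested genes 9.86% were higher and 10.8% lower there. In ivermectin 5 passed (1 higher, 4 lower), where 27.8% of all tested genes passed, 13.9% higher and 13.9% lower. At an unadjusted p under 0.05 there were 4 and 6 of the 9 genes, against 32.9% and 38.2% of all tested genes. DESeq2 called 3 and 4 of the 9. The 3 called in vehicle were called in ivermectin too. The 2 comparisons share no library, but they set the same 2 lines against each other. Both take their spread from 1 fit over all 16 libraries. The median log2 difference of the 9 genes was -0.14 in vehicle and -0.21 in ivermectin, against -0.000656 and -0.00040 over all tested genes.

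Snap25, the plasma membrane SNARE that contributes a pair of helices to the bundle, was at 135, 129, 129 and 109.6 CPM in wild-type vehicle and at 121, 116, 117 and 86.3 CPM in knockout-labelled vehicle libraries (replicates 1 to 4). In ivermectin it was at 114, 119, 111 and 121 CPM in wild type and at 120.1, 98.3, 99.97 and 111 CPM in knockout-labelled libraries. The groups overlapped, and knockout-labelled vehicle replicate 4 was the lowest of all 16. The log2 difference between the lines was -0.19 in vehicle (SE 0.0991, adjusted p = 0.188) and -0.11 in ivermectin (SE 0.0931, adjusted p = 0.412), with 95% intervals of -0.39 to 0.01 and -0.30 to 0.08. With a library left out it ran from -0.248 to -0.0876 in vehicle and from -0.173 to -0.0662 in ivermectin. It passed under no alternative.

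Stx1a, its partner at the plasma membrane, was counted 25 to 68 times per library, the fewest of the 9 genes. It was at 28.1, 24.5, 35.3 and 25.1 CPM in wild-type vehicle and at 22.1, 34.1, 30.4 and 34.4 CPM in knockout-labelled vehicle libraries. In ivermectin the wild-type libraries were at 25.0, 23.6, 17.2 and 26.0 CPM and the knockout-labelled ones at 30.0, 36.0, 26.1 and 29.1 CPM. The lines did not overlap in ivermectin, with 26.0 CPM the highest wild-type value and 26.1 CPM the lowest knockout-labelled one, and they overlapped in vehicle. The log2 difference was 0.12 in vehicle (SE 0.176, adjusted p = 0.692) and 0.40 in ivermectin (SE 0.165, adjusted p = 0.0657). Without knockout-labelled ivermectin replicate 3 the latter was 0.466 and passed the test (adjusted p = 0.0475). It was 0.301 without wild-type ivermectin replicate 3 (adjusted p = 0.204) and 0.138 after thinning every library to the smallest total (adjusted p = 0.792).

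Vamp2, the SNARE of the granule, was at 158, 147, 175 and 156 CPM in wild-type vehicle and at 178, 145, 163 and 145 CPM in wild-type ivermectin libraries. In knockout-labelled libraries it was at 136, 143, 149.7 and 147 CPM in vehicle and at 128, 139, 137 and 142 CPM in ivermectin. The lines overlapped in vehicle and did not overlap in ivermectin. Vamp2 fell by 0.21 on the log2 scale in ivermectin (SE 0.078, adjusted p = 0.0373), and its log2 difference in vehicle was -0.14 (SE 0.0828, adjusted p = 0.241). The call in ivermectin was lost with DESeq2 (-0.215, adjusted p = 0.0818) and without the low-count filter (-0.202, adjusted p = 0.0728). After thinning every library to the smallest total it was lost as well (-0.291, adjusted p = 0.102). It was also lost without wild-type ivermectin replicate 1 (-0.140, adjusted p = 0.23) or 3 (adjusted p = 0.088) and without knockout-labelled ivermectin replicate 1 (adjusted p = 0.114) or 3 (adjusted p = 0.064).

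Syt7, a calcium sensor with high calcium affinity, was at 59.6, 76.3, 63.1 and 88.3 CPM in wild-type vehicle and at 40.1, 60.7, 50.4 and 47.7 CPM in knockout-labelled vehicle libraries. In ivermectin it was at 75.5, 75.1, 62.3 and 71.2 CPM in wild type and at 44.5, 50.3, 43.8 and 44.0 CPM in knockout-labelled libraries. The lines were apart in ivermectin, and in vehicle 1 knockout-labelled library (replicate 2) reached above the lowest wild-type library. Syt7 fell by 0.53 on the log2 scale in vehicle (SE 0.13, adjusted p = 0.00242) and by 0.64 in ivermectin (SE 0.122, adjusted p = 0.000122). After thinning to the smallest total the vehicle value was -0.428 and no longer passed (adjusted p = 0.0945).

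Rab3a, the GTPase that marks granules for docking, differed between the lines with no overlap. It was at 133, 139, 154 and 145 CPM in wild-type vehicle and at 150.4, 141, 161 and 158 CPM in wild-type ivermectin libraries. The knockout-labelled libraries were at 99.3, 91.3, 97.3 and 98.0 CPM in vehicle and at 91.7, 99.97, 94.7 and 103 CPM in ivermectin. The highest knockout-labelled value, 102.9 CPM, was below the lowest wild-type value, 132.7 CPM. Rab3a fell by 0.57 on the log2 scale in vehicle (SE 0.0823, adjusted p = 2.61e-06, 95% interval -0.73 to -0.40) and by 0.65 in ivermectin (SE 0.0759, adjusted p = 3.43e-08, 95% interval -0.80 to -0.49). The call held under all 26 alternatives in each treatment, with adjusted p-values of at most 0.000197 and 0.000545. In bulk RNA, fewer cells of a type and less RNA per cell cannot be told apart.

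Sytl4, the docking factor granuphilin, was the only one of the 9 genes that passed the test with a higher level in knockout-labelled libraries. It was at 472, 463, 418 and 457 CPM in wild-type vehicle and at 434, 443, 449.5 and 411 CPM in wild-type ivermectin libraries. The knockout-labelled libraries were at 575, 596, 561 and 549.8 CPM in vehicle and at 574, 650.1, 538 and 568 CPM in ivermectin. The lines did not overlap. Sytl4 rose by 0.33 on the log2 scale in vehicle (SE 0.0597, adjusted p = 6.32e-05, 95% interval 0.21 to 0.46) and by 0.42 in ivermectin (SE 0.0576, adjusted p = 6.47e-07, 95% interval 0.31 to 0.54). It passed under all 26 alternatives in each treatment, with adjusted p-values of at most 0.00266 and 0.000111.

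Rims2, the scaffold, was the least abundant of the 9 per length and was counted 34 to 111 times per library. It was at 39.4, 50.9, 36.3 and 57.6 CPM in wild-type vehicle and at 40.1, 55.2, 43.9 and 53.5 CPM in knockout-labelled vehicle libraries. In ivermectin it was at 55.5, 45.5, 43.8 and 41.3 CPM in wild type and at 38.1, 37.7, 37.2 and 46.6 CPM in knockout-labelled libraries. All groups overlapped. The log2 difference between the lines was 0.05 in vehicle (SE 0.146, adjusted p = 0.84) and -0.24 in ivermectin (SE 0.137, adjusted p = 0.19). With a library left out the ivermectin value ran from -0.321 to -0.131, and it passed under no alternative.

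Unc13a, the priming factor, was at 136, 164, 158 and 197 CPM in wild-type vehicle and at 140.0, 161, 139 and 135 CPM in knockout-labelled vehicle libraries. In ivermectin it was at 173, 182, 162 and 153 CPM in wild type and at 129, 139, 114 and 129 CPM in knockout-labelled libraries. The lines overlapped in vehicle and were apart in ivermectin. Unc13a fell by 0.40 on the log2 scale in ivermectin (SE 0.0879, adjusted p = 0.000778), and its log2 difference in vehicle was -0.20 (SE 0.0926, adjusted p = 0.127). Without wild-type vehicle replicate 1 the vehicle value was -0.268 (adjusted p = 0.042), and without knockout-labelled vehicle replicate 2 it was -0.258 (adjusted p = 0.0498), which then passed. Without wild-type vehicle replicate 4 it was -0.0893 (adjusted p = 0.581).

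Slc30a8, the zinc transporter of the granule, had the narrowest interval of the 9 genes. It was at 547, 554, 577 and 595 CPM in wild-type vehicle and at 578, 580.5, 583 and 554 CPM in wild-type ivermectin libraries. In knockout-labelled libraries it was at 540.1, 603, 608 and 588 CPM in vehicle and at 601, 628, 578 and 586 CPM in ivermectin. The log2 difference between the lines was 0.04 in vehicle (95% interval -0.07 to 0.15, adjusted p = 0.637) and 0.06 in ivermectin (95% interval -0.05 to 0.17, adjusted p = 0.413). Changes larger than these bounds in either direction lie outside the intervals.

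**Figure D2:**
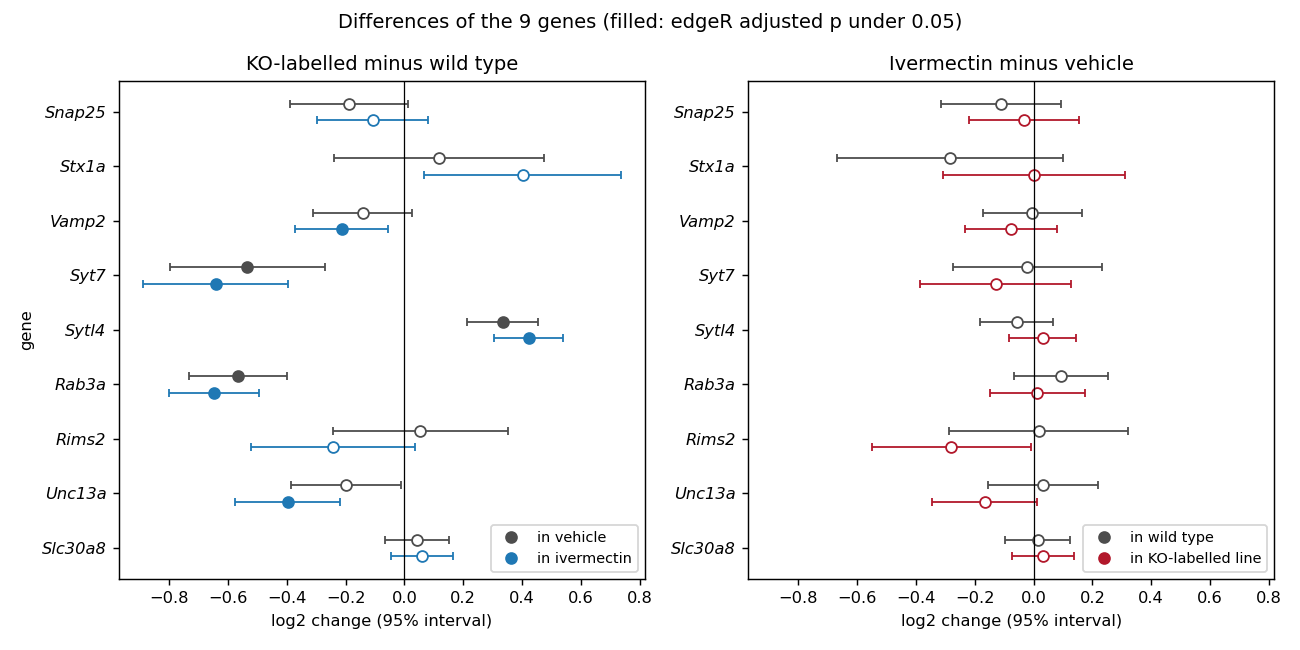
Log2 differences of the 9 genes with 95% intervals (horizontal axis), on the left between the lines in each treatment and on the right between ivermectin and vehicle in each line, with filled points for an edgeR adjusted p under 0.05. Rab3a, Syt7 and Sytl4 are filled in both treatments on the left, at -0.57, -0.53 and 0.33 in vehicle, and no point on the right is filled.

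Ivermectin left no member past the test within 30 min. In wild type 0 of 9 passed by edgeR, 0 had an unadjusted p under 0.05 and 0 passed by DESeq2. Of all tested genes 0.601% (65) passed by edgeR and 5.2% had an unadjusted p under 0.05. In knockout-labelled libraries 0 of 9 passed by edgeR and by DESeq2, where 0% of all tested genes passed by edgeR. An unadjusted p under 0.05 was found for 1 of 9, Rims2, and for 7.58% of all tested genes. Log2 differences in wild type ran from -0.28 for Stx1a (95% interval -0.67 to 0.10) to 0.09 for Rab3a (95% interval -0.06 to 0.25). In knockout-labelled libraries they ran from -0.28 for Rims2 (95% interval -0.55 to -0.00996, adjusted p = 0.649) to 0.03 for Slc30a8. The intervals bounded the most abundant members tightly, with -0.10 to 0.12 for Slc30a8 and -0.18 to 0.07 for Sytl4 in wild type. They were wider for the rarer ones, with -0.27 to 0.23 for Syt7 and -0.29 to 0.32 for Rims2 in wild type.

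The difference between the ivermectin responses of the lines was tested as an interaction. Here 0 of 9 members passed by edgeR, 0 had an unadjusted p under 0.05 and 0 passed by DESeq2, where 0.222% of all tested genes passed by edgeR and 5.11% had an unadjusted p under 0.05. The interaction was largest in size for Rims2, at -0.30 (95% interval -0.70 to 0.11), Stx1a, at 0.28 (95% interval -0.21 to 0.78), and Unc13a, at -0.20 (95% interval -0.46 to 0.06). The passing of Unc13a and Vamp2 in ivermectin but not in vehicle is therefore not shown to be a difference between the treatments. The interaction of Vamp2 was -0.07 (95% interval -0.30 to 0.16).

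The share of a gene within its own family sets it against its closest relatives inside each library, so that library scaling cancels. Shares were formed from TPM, and the lines were compared with labels permuted within treatment. Of 9 shares, 3 differed between the lines, and 0 of 9 differed between ivermectin and vehicle (smallest exact permutation p = 0.0927 before adjustment over 18 tests).

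Rab3a held 76.8, 77.6, 81.5 and 79.8% of the summed TPM of Rab3a, Rab3b, Rab3c and Rab3d in wild-type vehicle and 79.1, 79.2, 80.7 and 79.8% in wild-type ivermectin libraries. In knockout-labelled libraries it held 73.6, 70.8, 70.9 and 71.3% in vehicle and 72.7, 74.9, 72.3 and 73.7% in ivermectin. The lines did not overlap. The share fell by 6.77 points (two-sided exact permutation p = 0.000408, the smallest that 4900 arrangements can give, adjusted p = 0.00367). Rab3d, a GTPase better known from exocrine granules, was the largest relative at 34.2 TPM in wild-type and 35.3 TPM in knockout-labelled vehicle libraries, with no passed test in either treatment (log2 0.12 and -0.10). Rab3b, a relative known from neurons and the pituitary, was counted only 8 to 26 times per library. It fell by 1.22 on the log2 scale in vehicle and by 1.26 in ivermectin, from 6.94 to 2.79 TPM in vehicle. Rab3c rose by 0.45 in ivermectin (adjusted p = 0.0142) and was at 0.34 in vehicle (adjusted p = 0.147), and its call was lost with DESeq2 (adjusted p = 0.0645), after thinning (0.0694) and without wild-type ivermectin replicate 1 (0.396, adjusted p = 0.0588).

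Vamp2 held 38.8, 37.3, 37.1 and 38.7% of the summed TPM of Vamp1, Vamp2, Vamp3 and Vamp8 in wild-type vehicle and 40.5, 33.3, 36.6 and 33.7% in wild-type ivermectin libraries. In knockout-labelled libraries it held 27.2, 32.7, 31.9 and 30.9% in vehicle and 30.9, 30.2, 30.6 and 27.9% in ivermectin. The lines did not overlap, and the difference was -6.71 points (two-sided exact permutation p = 0.000408, adjusted p = 0.00367). Vamp8 (endobrevin), a SNARE of endosomes and of secretory granules in several cell types, rose by 0.65 on the log2 scale in vehicle (SE 0.161, adjusted p = 0.00283). Its CPM was 28.1 to 47.0 in wild-type and 47.1 to 65.1 in knockout-labelled vehicle libraries. In ivermectin Vamp8 was at 0.32 (adjusted p = 0.088), and without knockout-labelled ivermectin replicate 1 it passed (0.434, adjusted p = 0.0229). Vamp3 (cellubrevin) was at 107 TPM in wild-type and 101 TPM in knockout-labelled vehicle libraries, with log2 differences of -0.00223 and 0.07.

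Slc30a8 held 70.4 ± 1.47% of the summed TPM of its zinc transporter family in wild-type vehicle and 73.1 ± 1.13% in knockout-labelled vehicle libraries (SD, n = 4). In ivermectin it held 70.9 ± 1.28% and 73.2 ± 0.949%. The lines overlapped, and the difference was 2.47 points (two-sided exact permutation p = 0.00367, adjusted p = 0.022). Mean Slc30a8 TPM did not rise between the lines, from 498.5 to 487.0 in vehicle and from 494.0 to 472.3 in ivermectin. Its most abundant relatives fell in vehicle, Slc30a5 from 81.71 to 72.89 TPM and Slc30a9 from 67.95 to 55.24 TPM. Mean TPM of Slc30a2, Slc30a4, Slc30a6 and Slc30a10 was lower there too, and that of Slc30a1, Slc30a3 and Slc30a7 higher. With Slc30a8 set against its most abundant relative alone, the share difference was 1.317 points and did not pass (exact permutation, adjusted p = 0.105). With labels permuted only within replicate numbers the differences were the same, and 256 arrangements allow no exact permutation p under 0.00781. Vamp2 and Rab3a reached that smallest p, which stood at 0.0703 after adjustment, so this permutation says nothing about the stability of their shares. For Slc30a8 it gave an exact permutation p of 0.0156 (adjusted p = 0.0703). Shares of Snap25, Stx1a, Syt7, Rims2 and Unc13a did not pass, and that of Sytl4, 1.24 points higher, passed only without wild-type vehicle replicate 4 (1.58 points, adjusted p = 0.00918 against 0.0937 with it).

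**Figure D3:**
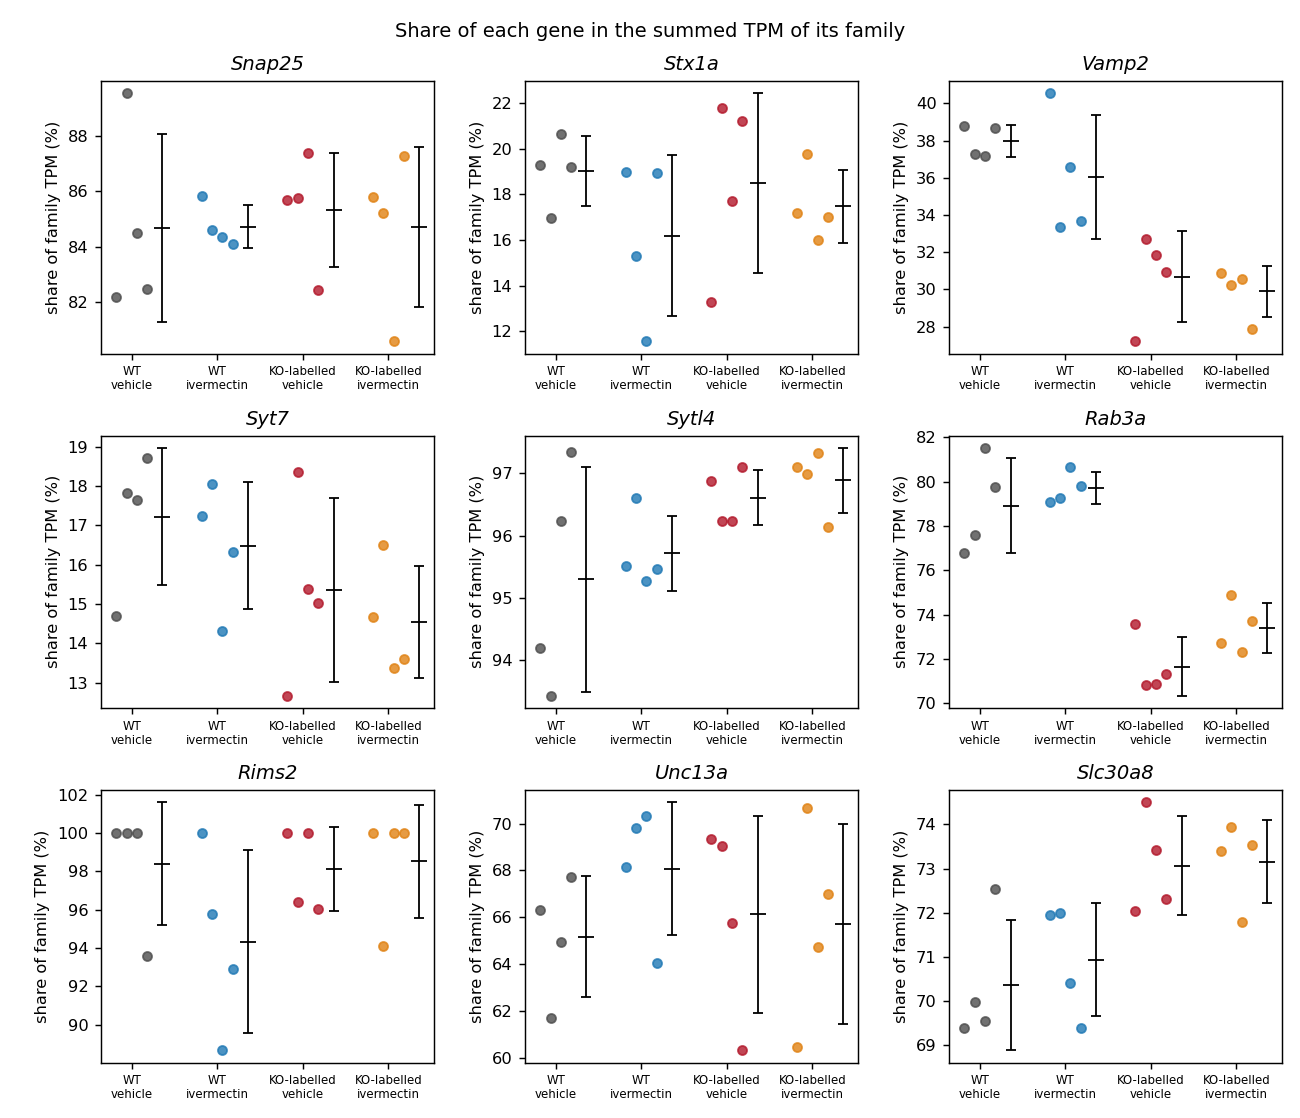
Share of each of the 9 genes in the summed TPM of its family (vertical axis in percent, not from 0) in the 16 libraries, with 1 point per library and a black bar for the mean ± SD of each group of 4. The shares of Vamp2 and Rab3a are lower in every knockout-labelled library than in every wild-type library, with mean differences of -6.71 and -6.77 points.

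Other exocytosis genes were read through a list of 96 symbols, of which 95 are in the table and 77 passed the low-count filter. In vehicle 15 of 77 passed between the lines (5 higher, 10 lower), or 19.5%, near the 20.7% of all tested genes. In ivermectin 20 of 77 passed (6 higher, 14 lower), or 26%, near the 27.8% of all tested genes. After thinning every library to the smallest total, 6 listed genes passed in ivermectin (1 higher, 5 lower). All tested genes then gave 1424 calls, against 3008 without thinning. The median log2 difference of the list was -0.00775 and -0.00534. Of the 15 and the 20, 10 were called in both with the same sign, 2 higher and 8 lower.

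The roles hold few genes each, and their counts are descriptions beside the 20.7% of all tested genes called in vehicle (9.86% higher, 10.8% lower) and the 27.8% called in ivermectin (13.9% higher, 13.9% lower). Synaptotagmins and the related Doc2 proteins, some of which sense calcium, gave 4 calls among 10 tested in each treatment, 1 higher and 3 lower in vehicle and 4 lower in ivermectin. Syt11, a synaptotagmin that does not bind calcium, fell by 0.93 on the log2 scale in vehicle (adjusted p = 1.43e-10) and by 0.90 in ivermectin (adjusted p = 3.22e-11), from 159.4 to 190.4 CPM in wild type to 79.6 to 109.3 CPM in knockout-labelled libraries. Syt4, another synaptotagmin of weak calcium binding, fell by 0.48 and 0.36. Syt13, a synaptotagmin that does not bind calcium, was the 1 higher call in vehicle, rose there by 0.20 (adjusted p = 0.0101) and was at 0.12 in ivermectin (adjusted p = 0.106). Syt2, a fast sensor counted 6 to 24 times per library, fell by 0.97 in vehicle (adjusted p = 0.0198) and was at -0.78 in ivermectin (adjusted p = 0.0544). The vehicle call of Syt2 was lost without wild-type vehicle replicate 2 (adjusted p = 0.102) or 4 (adjusted p = 0.0907). Its ivermectin value passed without wild-type ivermectin replicate 2 (-0.945, adjusted p = 0.0275) or knockout-labelled ivermectin replicate 3 (-0.948, adjusted p = 0.0393). Syt1, the fast sensor of neurons, was counted only 6 to 27 times per library. It fell by 1.003 in ivermectin (adjusted p = 0.00663) and was at -0.74 in vehicle (adjusted p = 0.0944). The vehicle value passed without knockout-labelled vehicle replicate 1 (-0.994, adjusted p = 0.0338). Syt5 fell by 0.82 in ivermectin (adjusted p = 0.000146) and was at -0.29 in vehicle (adjusted p = 0.272).

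Among priming factors 2 of 5 were lower in each treatment, against 10.8% and 13.9% of all tested genes. Baiap3, a Munc13-related protein, was counted only 5 to 29 times per library. It fell by 1.55 in vehicle and by 1.20 in ivermectin on the log2 scale. Its CPM was 8.77 to 18.6 in wild-type and 2.90 to 6.97 in knockout-labelled libraries. Rapgef4 (Epac2), the cAMP sensor that promotes granule priming, fell by 0.31 in both treatments (adjusted p = 0.0399 and 0.0165). The Rapgef4 call in vehicle was lost in 10 of 26 alternatives. These were DESeq2 (adjusted p = 0.111), no low-count filter (0.112), thinning (0.254), a fit on the 8 libraries compared (0.051), and leaving out any one of the wild-type vehicle libraries or knockout-labelled vehicle replicate 2 or 4, with adjusted p-values up to 0.146. Its call in ivermectin was lost with DESeq2 (adjusted p = 0.0597), after thinning (0.128) and without wild-type ivermectin replicate 1 (-0.278, adjusted p = 0.0595).

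Active-zone scaffolds, which organise release sites in neurons, gave 0 calls among 9 in vehicle by edgeR, with 0 at an unadjusted p under 0.05, and 3 lower in ivermectin. Ppfia2 (liprin-α2) fell by 0.60, Erc1 (ELKS) by 0.42 and Pclo (piccolo) by 0.29 on the log2 scale, with values of -0.27, 0.11 and 0.07 in vehicle. Each of these calls was lost without knockout-labelled ivermectin replicate 3, with adjusted p-values of 0.0732, 0.0666 and 0.121. The calls of Erc1 (adjusted p = 0.0661) and Pclo (adjusted p = 0.0774) were also lost without wild-type ivermectin replicate 1 and that of Pclo without knockout-labelled ivermectin replicate 4 (adjusted p = 0.061). Ppfia2 was also lost with DESeq2 (adjusted p = 0.0724) and without wild-type ivermectin replicate 2 or 3 or knockout-labelled replicate 2. More ivermectin calls were lost after thinning to the smallest total, given here as log2 value and adjusted p. These were Baiap3 (-1.29, 0.071), Syt4 (-0.263, 0.0814), Syt1 (-1.33, 0.0614) and Syt5 (-0.741, 0.0796). The others were Snap47 (0.302, 0.146), Ppfia2 (-0.648, 0.168), Erc1 (-0.535, 0.0514) and Pclo (-0.316, 0.0685). All kept their sign.

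Plasma membrane SNAREs other than the members gave 2 higher of 6 in vehicle and 3 higher in ivermectin, with none lower. Snap47 rose by 0.41 and 0.31, and Stx3, a syntaxin found on granules and plasma membrane, rose by 0.55 and 0.39 on the log2 scale. The Stx3 call in vehicle was lost without wild-type vehicle replicate 4 (0.355, adjusted p = 0.10) and after thinning (0.0682). Its call in ivermectin was lost with DESeq2 (adjusted p = 0.0748), after thinning (0.113), without wild-type ivermectin replicate 1 (0.296, adjusted p = 0.149) or 2 and without knockout-labelled ivermectin replicate 1, 2 or 4. Among 12 SM proteins and SNARE regulators 0 passed in vehicle by edgeR, with 2 at an unadjusted p under 0.05, and 1 in ivermectin. Cplx2 (complexin 2), the clamp of the SNARE bundle, was at 0.12 and 0.10 and did not pass.

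Rab27a, the GTPase that recruits Sytl4 to granules, did not pass, at 0.05 in vehicle (95% interval -0.18 to 0.27) and 0.02 in ivermectin. Among 9 exocyst subunits, which tether vesicles to the membrane, 1 was called higher and 1 lower in vehicle, and 1 lower in ivermectin. The lower call in each treatment was Exoc6b, which fell by 0.51 and 0.42 on the log2 scale. The granule membrane proteins Ptprn (IA-2) and Ptprn2 (phogrin) fell by 0.14 and 0.24, and by 0.30 and 0.36. Ptprn in vehicle was lost without the low-count filter (-0.108, adjusted p = 0.211) and after thinning (0.143). It was also lost without wild-type vehicle replicate 2, 3 or 4 or knockout-labelled vehicle replicate 3 or 4, with adjusted p-values up to 0.127. Between ivermectin and vehicle 0 of 77 passed by edgeR and by DESeq2 in wild type, with 3 at an unadjusted p under 0.05, against 0.601% and 5.2% of all tested genes by edgeR. In knockout-labelled libraries 0 of 77 passed by both tools, with 7 at an unadjusted p under 0.05, against 0% and 7.58% of all tested genes by edgeR. For the interaction 0 of 77 passed by both tools, with 4 at an unadjusted p under 0.05, against 0.222% and 5.11% by edgeR.

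**Figure D4:**
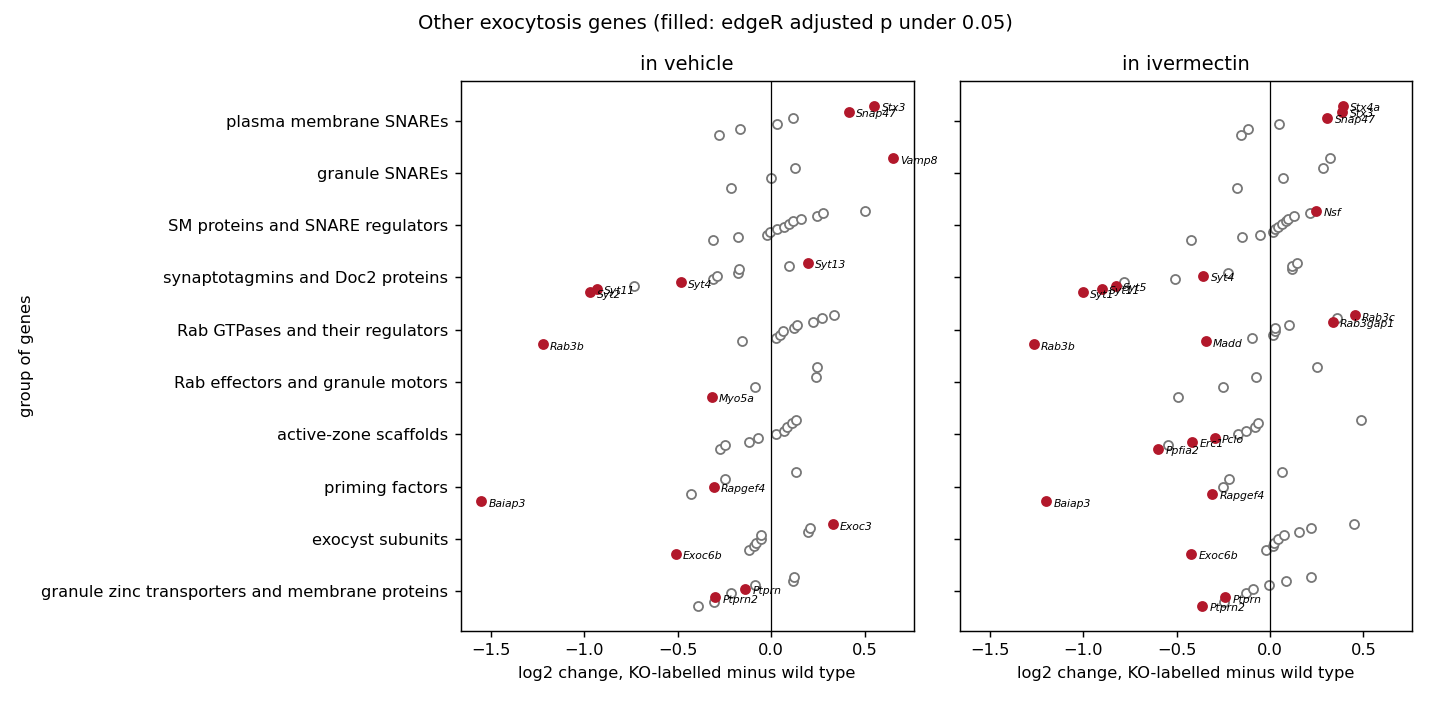
Log2 difference between the lines (horizontal axis) of the 77 other exocytosis genes tested, grouped by role (vertical axis), in vehicle on the left and ivermectin on the right, with filled and named points for an edgeR adjusted p under 0.05. Of 15 filled points in vehicle 10 lie below 0, led by Baiap3 at -1.55 and Rab3b at -1.22. These genes were counted only 5 to 29 and 8 to 26 times per library.

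The 3 tested genes whose profile over the 16 libraries was most like that of Rab3a were Hyou1, a chaperone of the endoplasmic reticulum, Cadm1, an adhesion molecule, and Slc39a8, a metal importer. Their root mean square distances from Rab3a were 0.0877, 0.0916 and 0.0991 on the centred log2 CPM scale, where a flat profile lies at 0.309. Of the other members Syt7 came nearest, at rank 411 of 10819, followed by Unc13a at 678 and Vamp2 at 881. Sytl4 ranked 8720. The 16 libraries fall into 2 lines and differ in depth, and the profiles compared share both, so the distances are a description.

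In GRCm38.p6, Snap25 lies at chr2:136713439-136782428, Stx1a at chr5:135023482-135051100, Vamp2 at chr11:69088528-69092381 and Syt7 at chr19:10388802-10453181. Sytl4 lies at chrX:133936385-133981821, Rims2 at chr15:39198286-39684372 and Slc30a8 at chr15:52295553-52335798. Rab3a (chr8:70754703-70758608) and Unc13a (chr8:71624125-71671774) lie on chromosome 8 with 869.4 kb between their starts on the map. The 22 tested genes between them had a median log2 difference between the lines of 0.08 in both treatments, with 1 gene higher and 1 lower past the test in vehicle and 4 higher and 2 lower in ivermectin.

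The median difference between the lines varied by chromosome. The median log2 difference over the tested genes of a chromosome ran from -0.24 for chromosome 16 to 0.22 for chromosome 11 in vehicle. It was -0.15 in vehicle and -0.17 in ivermectin for the 525 tested genes of chromosome 8. Relative to that median Rab3a lay at -0.417 and -0.482, and Unc13a lay at -0.0496 and -0.231 from it. On chromosome 11 the median was 0.22 and 0.23 over 798 genes, and Vamp2 lay at -0.358 and -0.443 from it. Chromosomes 19 and X had medians of 0.06 and 0.00387 in vehicle, from which Syt7 and Sytl4 lay at -0.591 and 0.33. The part of the chromosome medians in the members' differences was not tested, and chromosomes were placed for 89.7% of tested genes by symbol.

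**Figure D5:**
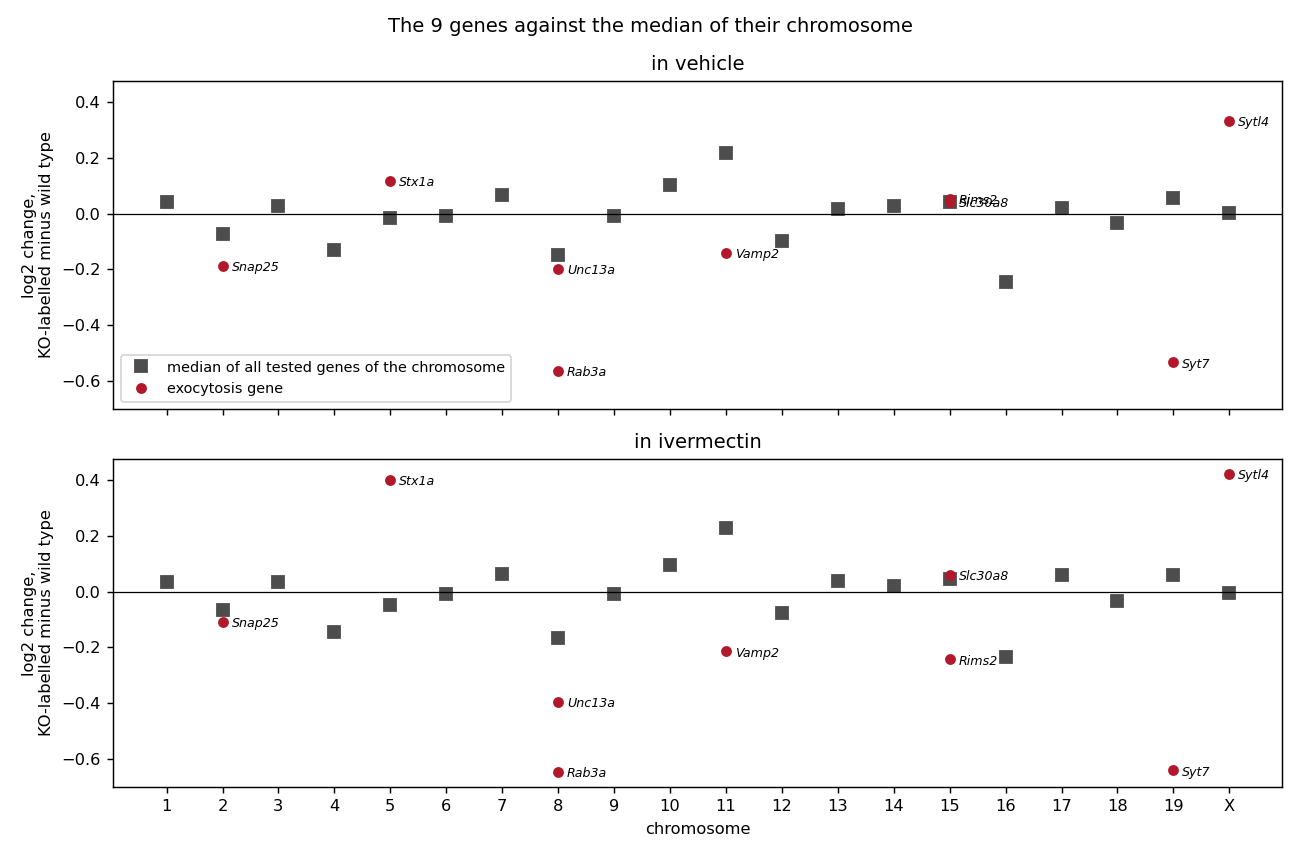
Log2 difference between the lines (vertical axis) by chromosome (horizontal axis), in vehicle above and ivermectin below, with a square for the median of all tested genes of a chromosome and a red point for each of the 9 genes. The medians run from -0.24 to 0.22 in vehicle, and Rab3a, Syt7 and Sytl4 lie farther from 0 than any of them.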

How the data were processed

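RNA was measured in 16 libraries of BetaTC6 cells, 4 in each of 4 groups. Per the labels' protocols, poly(A) RNA (125 ng) was amplified for 11 cycles with a strand-keeping kit and read from both ends for 42 nucleotides. Per the submitters' processing notes, STAR 2.7.2b, RSEM 1.3.3, DESeq2 1.32.0 and the mm10 build were used. The strand setting of the counting is not given in the sources used here, so reads of genes that overlap on opposite strands may be shared. The counts deposited by the authors are whole numbers, and all 373264 values equalled RSEM's expected counts rounded down. Per the file headers, RSEM also gave the expected counts, effective lengths and TPM of each library. The normalized table and the human single-cell files were not used.

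From the deposited counts, edgeR 4.0.16 in R 4.3.3 kept 10820 of 23329 genes (filterByExpr, minimum count 10, minimum total 15), fitted 1 mean per group over all 16 libraries with TMM factors, and tested contrasts by quasi-likelihood with Benjamini-Hochberg adjustment over all tested genes and a threshold of 0.05. Adjusted p-values in the text are from this fit unless another tool is named. The fit and the share test were first tested on simulated data. CPM carry TMM factors. Family shares used TPM and two-sided exact permutation over libraries (4900 arrangements), adjusted over 18 tests. Intervals are 95%. Promoters and positions came from RefSeq tables of GRCm38.p6.

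The labels do not say whether replicates came from separate cultures, so p-values measure only the spread between these libraries. Library totals of 893088 to 2013242 counts limit the precision of the rarer members. Reads were amplified without molecular identifiers.

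The members and lists were chosen with earlier results of these data known. Named were all 9 members, up to 12 listed genes past 0.05 in both comparisons of the lines with the same sign, family relatives, and the 3 genes most like the member with the largest difference. Vamp8, Erc1, Ppfia2, Pclo, Rab3c, Rab3d, Vamp3, Syt1, Syt2, Syt5, Syt13, Cplx2, Rab27a and the chromosome medians were chosen after their values were seen. Alternatives tried: DESeq2 1.42.0, the unfiltered table, scaling by relative log expression, genes averaging 50 counts or more, a fit on the 8 libraries of each comparison, a replicate block, rounded expected counts, the hepatocyte list left out, thinning to the smallest total, an effective length offset and each library left out. Vamp7 was not analysed here.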

Additional observations from a re-analysis of the deposited data

Results flagged for a closer look

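Of 72 groups of 4 libraries examined (CPM and family share of each member), 5 held a library far from its other 3. Chance gives about 3.6 of 72, a figure that does not hold for the share of Rims2, where any read of Rims1 in 1 library alone sets that library apart. Snap25 in knockout-labelled vehicle replicate 4 was at 86.3 CPM against 116.4 to 120.8 CPM in the other 3. Syt7 in knockout-labelled ivermectin replicate 2 was at 50.3 CPM against 43.8 to 44.5 CPM. Rims2 in knockout-labelled ivermectin replicate 4 was at 46.6 CPM against 37.2 to 38.1 CPM. The share of Rims2 in the summed TPM of Rims1 and Rims2 was 93.6% in wild-type vehicle replicate 4 and 94.1% in knockout-labelled ivermectin replicate 2, against the whole of the sum in the other 3 libraries of each group, where Rims1 was listed at 0.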

How the results depend on the processing

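Of 40 differences that passed the threshold, among 101 tested for members, named genes and shares, 0 changed sign under any alternative. The replicate block changed no member's call. It left 3 members called in vehicle and 5 in ivermectin, and gave 47 genes called in the interaction against 24. Under the block 0 family shares passed between the lines, against 3, with the same differences in points, where the smallest p its 256 arrangements allow was 0.0703 after adjustment. Of the 24 pairs of same-numbered libraries in different groups, 7 correlated above 0.1 (range -0.245 to 0.374). The 72 differently numbered pairs ranged from -0.384 to 0.385. Of the 16 libraries, 7 correlated best with their own number. Whether same-numbered libraries shared a culture or batch is not given in the labels and was not tested. Leaving out a library gave 3 to 4 members called in vehicle and 4 to 5 in ivermectin, 11 to 16 and 14 to 24 listed genes, and 3 to 4 shares. Over all tested genes, ivermectin in wild type gave 65 calls, 140 without the low-count filter, 7 at a mean of at least 50 counts, 40 after thinning and 55 to 100 with a library left out (100 without wild-type ivermectin replicate 1). In knockout-labelled libraries it gave 23 without the filter. The interaction gave 15 with DESeq2, 82 without the filter, 4 at a mean of at least 50 counts, 14 without the hepatocyte list, 11 after thinning and 8 to 48 with a library left out. After thinning the lines differed in 1304 genes in vehicle and 1424 in ivermectin, and in 6 listed genes in ivermectin. The cause of these shifts was not tested, beyond fewer counts after thinning and fewer or more genes under the filters. Values that changed sign were all short of the threshold. These were, without the filter, Vamp2 for ivermectin in wild type (0.00588), Stx1a for ivermectin in knockout-labelled libraries (-0.00898) and the interaction of Slc30a8 (-0.000465). For Stx1a that value was also -0.00238 with DESeq2, -0.00317 with relative log expression factors and -0.224 after thinning. Thinning also gave -0.0262 for Slc30a8 and ivermectin in knockout-labelled libraries, -0.0564 for Rims2 between the lines in vehicle, and interactions of -0.0745 for Stx1a, 0.0553 for Rab3a and -0.0648 for Slc30a8. The ivermectin difference of the Slc30a8 share was -0.266 points against its most abundant relative. With a library left out, ivermectin in wild type ran from -0.0744 to 0.0464 for Vamp2, -0.0943 to 0.0995 for Syt7, -0.091 to 0.151 for Rims2, -0.0407 to 0.138 for Unc13a and -0.00105 to 0.038 for Slc30a8. In knockout-labelled libraries it ran from -0.134 to 0.0104 for Snap25, -0.116 to 0.0626 for Stx1a, -0.0273 to 0.0661 for Sytl4, -0.0151 to 0.0398 for Rab3a and -0.00494 to 0.0511 for Slc30a8. Between the lines Rims2 in vehicle ran from -0.0375 to 0.19. Interactions ran from -0.022 to 0.142 for Snap25, -0.229 to 0.00545 for Syt7 and -0.0177 to 0.0383 for Slc30a8. Share differences between the lines ran from -0.105 to 1.13 points for Snap25, -0.385 to 1.26 for Stx1a and -1.52 to 0.26 for Unc13a, and the ivermectin difference of Snap25 from -0.764 to 0.526. Stx1a has no value at a mean of at least 50 counts, where it is left out. The same holds for Baiap3, Rab3b, Rab3c, Syt1, Syt2, Syt5 and Ppfia2. The interaction has no value for the 8 libraries compared. Depth limits the rarer members most: Stx1a was counted 25 to 68 times per library.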
